A study of Mus musculus with 18 samples.

Results

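Interleukin 6 (IL-6) was set against medium alone in wild type naive CD4 T cells, a comparison of 6 arrays out of the 18 in the series. The 6 arrays were taken by their labels, 3 of cells kept in medium and 3 of cells given IL-6 at 20 ng/ml. Each array held total RNA of mouse CD4 T cells that came out of lymph nodes and spleen and were sorted by flow cytometry as naive cells, without CD44 or CD25 on the surface. The wild type cells were labelled as strain C57BL/6J, and all cells were harvested 3 hours after the cytokine was added. Other groups served only to show where the wild type IL-6 response differed. They were wild type cells of the same strain given interleukin 27 (IL-27) at 20 ng/ml, and STAT3-deficient cells (STAT3KO, labelled Cd4-Cre_C57BL6-STAT3<tm1Dlv>, also listed under strain C57BL/6J) kept in medium or given IL-6, with 3 arrays in each group. In the STAT3-deficient mice a Cre recombinase driven by the Cd4 promoter removes Stat3 in T cells, so that other cells of those mice keep it. The series describes its arrays as biological triplicates. Neither the age of the mice nor any pooling of mice within a sample is stated in the labels used here, so that the p-values measure the spread between these arrays.

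IL-6 binds a receptor made of Il6ra and the shared signalling chain gp130, encoded by Il6st. Janus kinases on that chain phosphorylate the transcription factor STAT3, and Socs3, one of the first genes that STAT3 turns on, blocks the chain again. In CD4 T cells IL-6 is known for starting the Th17 and follicular helper programs and for keeping resting cells alive.

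The arrays carried the signature of CD4 T cells. None of the 10 CD4 T cell markers on the array lay below its own array's median on all 6 arrays, and their summed signal ran from 151749 to 162640 units in medium and from 112776 to 117709 units with IL-6. The B cell markers summed to 1032 to 1083 units in medium and 996 to 1193 units with IL-6, with Cd79a, Cd79b, Pax5 and Ebf1 below the array median on all 6 arrays. Myeloid markers summed to 1044 to 1359 and 844 to 999 units, and CD8 T and NK cell markers to 3048 to 3637 and 2858 to 3560 units. Markers of memory or activated T cells summed to 4966 to 7825 and 4661 to 6765 units, and stromal markers to 2101 to 2416 and 1711 to 1780 units. Among these sets the calls were Gzma higher and Klrd1 lower of 6 CD8 T and NK cell markers tested, Fcgr3 lower of 11 myeloid ones (-1.46 ± 0.30), Cd44 lower of 4 memory ones (-0.82 ± 0.23) and Pecam1 lower of 3 stromal ones (-0.41 ± 0.12). Cd44 lost its call without medium array 2 or 3 or IL-6 array 2 or 3 (adjusted p up to 0.105), and Pecam1 without any single array other than medium array 3 (adjusted p up to 0.164). The part of these sets in the results below was not tested. In bulk RNA such as this, fewer cells of a type and less RNA per cell cannot be told apart. The median signals of the 6 arrays lay between 104.4 and 126.1 units, and the arrays correlated at 0.974 to 0.978 within a group and at 0.954 to 0.964 between the groups, across genes, which are not independent replicates.

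Of 11971 genes tested, 439 were called higher and 557 lower with IL-6 (adjusted p under 0.05 by limma), which is 3.67% and 4.65%, or 8.32% in either direction. The increases reached further than the decreases. At least 2-fold changes were seen in 168 genes called higher and 103 called lower, at least 4-fold changes in 35 and 2, and at least 8-fold changes in 10 and 0. The median of the changes was 0.85 on the log2 scale among the genes called higher and -0.69 among those called lower, while the median over all genes tested was -0.02. In the text below, a signal is the deposited probe set value in units, a change is a difference of log2(signal + 32) after quantile normalisation, ± gives the standard error from limma with 3 arrays in each group, and an adjusted p is limma's after Benjamini-Hochberg correction over all genes tested.

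**Figure D1:**
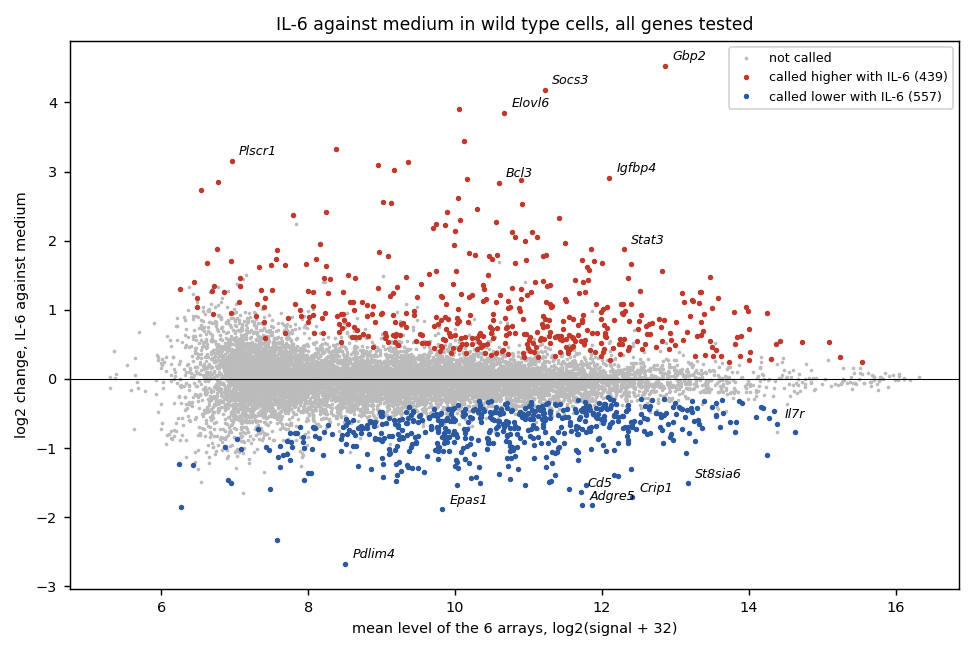
The log2 change with IL-6 (vertical axis) is plotted against the mean level of the 6 wild type arrays (horizontal axis, log2 of signal plus 32) for 11971 genes, 1 point per gene. The 439 genes called higher reach a log2 change of 4.53 at Gbp2, while the 557 called lower end at -2.67 at Pdlim4.

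The signalling chain Il6st rose and the kinase gene Jak1 fell. Il6st, the signal-transducing chain, read 1442, 1414 and 1465 units in medium and 2209, 2991 and 3008 units with IL-6. It rose by 0.87 ± 0.12 (1.83-fold, adjusted p = 3.46e-05), and all IL-6 arrays lay above all medium arrays. A second Il6st probe set also rose, by 0.88 ± 0.23, and the other pair stood at 0.74 ± 0.25 and 0.28 ± 0.27 and did not pass. Il6ra, the chain that binds IL-6 itself, read 2906, 3565 and 3031 units in medium and 1671, 3095 and 1912 units with IL-6. Those groups overlapped, and its change of -0.53 ± 0.17 did not pass (adjusted p = 0.0651). Jak1, the kinase that gp130 depends on most, went from 11440, 12327 and 11381 units to 6785, 7909 and 6908 units, a fall of 1.65-fold (-0.72 ± 0.09, adjusted p = 2.24e-05), and a second probe set fell with it by 0.68 ± 0.09 on the log2 scale. Jak2 stood at 0.30 ± 0.10 (adjusted p = 0.0696). Of 13 genes for the receptor and its proximal signalling, 2 rose and 2 fell, against 3.67% and 4.65% of all genes tested. With 1 array left out, 1 to 3 were called higher and 1 to 2 lower. The count of genes called higher was 1 without medium array 1 or 2 or IL-6 array 2 or 3, and the count of genes called lower was 1 without medium array 1, 2 or 3 or IL-6 array 1 or 3.

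Stat3 itself rose. Its signal was 3101, 2632 and 2361 units in medium and 9895, 9769 and 11002 units with IL-6, a change of 1.88 ± 0.12 (3.68-fold, adjusted p = 3.19e-09) with no overlap of the groups. Stat2, a part of the complex that type I interferons activate, rose by 1.06 ± 0.17. Stat5a, which signals for IL-2 and IL-7, stood at -0.48 ± 0.12 (adjusted p = 0.0129), a call that was lost without medium array 3 (adjusted p = 0.0768), without IL-6 array 3 (adjusted p = 0.0503) and when arrays were centred on their medians. Stat4 and Stat6 were not called, at -0.37 and -0.31.

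Of 16 feedback inhibitors of the pathway 4 rose, Socs3 most. Socs3 read 518, 460 and 584 units in medium and 10678, 12024 and 10061 units with IL-6. This rise of 18.1-fold (4.18 ± 0.15, adjusted p = 1.24e-12) was seen in both other Socs3 probe sets as well, which rose by 5.13 ± 0.31 and 4.27 ± 0.20. Socs1, which inhibits the Janus kinases of interferon receptors, went from 94.0, 96.9 and 85.8 units, below the median of each medium array, to 472, 492 and 560 units, and rose by 1.96 ± 0.20. Cish rose by 1.23 ± 0.16, and Ptpn1, a phosphatase that acts on Janus kinases, by 1.08 ± 0.09. The changes of the 12 members that were not called, among them the other SOCS genes and the PIAS genes, lay between -0.30 and 0.34.

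The Socs3 promoter is shown because Socs3 rose most among those of the 20 largest increases that carry a palindrome of the STAT type, TTCNNNGAA, in the 250 bases before the start. Of these 20 genes, 14 had a promoter window from 250 bases before to 50 after the start, and 2 held TTCNNNGAA there. Among the 20 largest decreases, 14 had a window and 1 held it, against 8.4% of all genes tested with a window. The form TTCCNGGAA was held by 0 genes of either set. The 250 bases before the Socs3 start, from RefSeq on build GRCm38.p6 at chr11:117969367-117969616 on the minus strand, hold TTCTTAGAA once, with its first base 154 bases before the start. Plscr1, a scramblase gene counted among the interferon-stimulated genes, was the other gene found by the same rule, with TTCCGAGAA at 90 bases before the start in chr9:92249944-92250193 on the plus strand. Capitals mark the palindrome in both.
Socs3: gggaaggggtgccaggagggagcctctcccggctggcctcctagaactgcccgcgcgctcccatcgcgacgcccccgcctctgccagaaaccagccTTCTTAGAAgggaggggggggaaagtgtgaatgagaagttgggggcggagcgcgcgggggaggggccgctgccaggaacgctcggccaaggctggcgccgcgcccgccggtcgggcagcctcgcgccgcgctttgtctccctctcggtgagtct
Plscr1: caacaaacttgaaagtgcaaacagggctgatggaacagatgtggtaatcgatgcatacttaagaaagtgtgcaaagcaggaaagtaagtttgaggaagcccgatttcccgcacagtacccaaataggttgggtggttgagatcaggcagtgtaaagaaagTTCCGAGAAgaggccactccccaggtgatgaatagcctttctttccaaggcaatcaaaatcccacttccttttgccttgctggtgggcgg

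Plscr1 lay at 5.0, 8.4 and 8.8 units in medium and at 297, 281 and 364 units with IL-6, which moved it from below the array median on all medium arrays to above it on all IL-6 arrays (3.16 ± 0.34, adjusted p = 2.44e-06). Such a step across the median was made by 21 genes called higher, and the reverse step by 11 called lower. A gene that made the upward step passed the filter on at least 3 arrays by its IL-6 arrays alone. The step is therefore no support apart from the change itself. Because 32 units are added before the logarithm, the fitted change of a dim gene such as Plscr1 understates the ratio of its signals, and the change of Plscr1 was 5.04 with 1 unit added and 2.45 with 64.

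Most of the reported STAT3 targets rose. Of 32 tested, 18 were called higher and 1 lower, and their median change was 0.91. The one lower was the survival gene Bcl2 at -0.59 ± 0.16, a call lost without medium array 1 or 2 or IL-6 array 2 or 3 (adjusted p up to 0.119). Bcl3, a nuclear regulator of NF-kB and of survival, read 752, 443 and 467 units in medium and 4732, 4132 and 4217 units with IL-6 (2.84 ± 0.15, 7.15-fold). Batf, a transcription factor needed for Th17 and follicular helper cells, went from 1003, 1109 and 1139 units to 3237, 3973 and 4129 units (1.72 ± 0.14). Bcl6, the repressor that defines follicular helper cells, went from 662, 606 and 611 units to 2212, 2158 and 2696 units (1.79 ± 0.16), and its second probe set rose by 1.26 ± 0.14. In none of these 3 genes did the groups overlap, and the IL-6 arrays lay above all medium arrays in 10.6% of all genes tested. For Bcl3 the rule that named it required this. The serine kinases Pim2 and Pim1 rose by 2.05 ± 0.12 and 0.82 ± 0.12, Junb by 1.41 ± 0.13, Hif1a by 1.25 ± 0.16, and Prdm1, which encodes the repressor Blimp-1, by 0.94 ± 0.16. Myc, with 822, 1345 and 1427 units in medium and 1576, 2528 and 2354 units with IL-6, had a change of 0.82 ± 0.50 and did not pass (adjusted p = 0.443).

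Other strong increases came from genes of varied function. Gadd45g, a stress-induced regulator of MAP kinase signalling, read 173, 308 and 185 units in medium and 4356, 4561 and 4088 units with IL-6 (3.91 ± 0.41). Elovl6, which lengthens saturated and monounsaturated fatty acids, went from 378, 353 and 414 units to 6172, 6890 and 6794 units (3.85 ± 0.13, 14.4-fold). Elovl6 was the only gene called higher of 17 in fatty acid synthesis, of which 2 were called lower, and 1 without medium array 1 or 3 or IL-6 array 1. Over all genes tested, 3.67% were called higher and 4.65% lower. Of 20 cholesterol synthesis genes 0 were called by limma and 2 had an unadjusted p under 0.05, and their changes lay between -0.49 and 0.31, with a median of -0.09. Igfbp4, a binding protein for insulin-like growth factors, rose from 1765, 1453 and 1610 units to 14416, 12545 and 11679 units (2.91 ± 0.11, 7.54-fold), and its 5 further probe sets rose by 2.48 to 3.10.

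Several of the raised genes are regulators in their own right. Rragd, a small GTPase that brings amino acid signals to mTOR complex 1, went from 214, 156 and 91.0 units to 1404, 1670 and 1849 units (3.02 ± 0.26, 8.09-fold), but its change was 1.54 as the mean of its probe sets. Mxd1, which opposes MYC at its DNA sites, rose by 2.89 ± 0.19, and Map3k8, a kinase that links NF-kB to the ERK pathway, by 2.56 ± 0.24. Samsn1, an adaptor that dampens lymphocyte activation, rose by 2.52 ± 0.30 (5.75-fold), and Myo6, an unconventional myosin, by 3.10 ± 0.29, or 2.43 as the mean of its probe sets. The transcript 5830468F06Rik rose from 320, 255 and 274 units to 3746, 3902 and 3791 units (3.44 ± 0.22). In each of these 6 genes the IL-6 arrays lay above all medium arrays, as the rule that named them required.

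**Figure D2:**
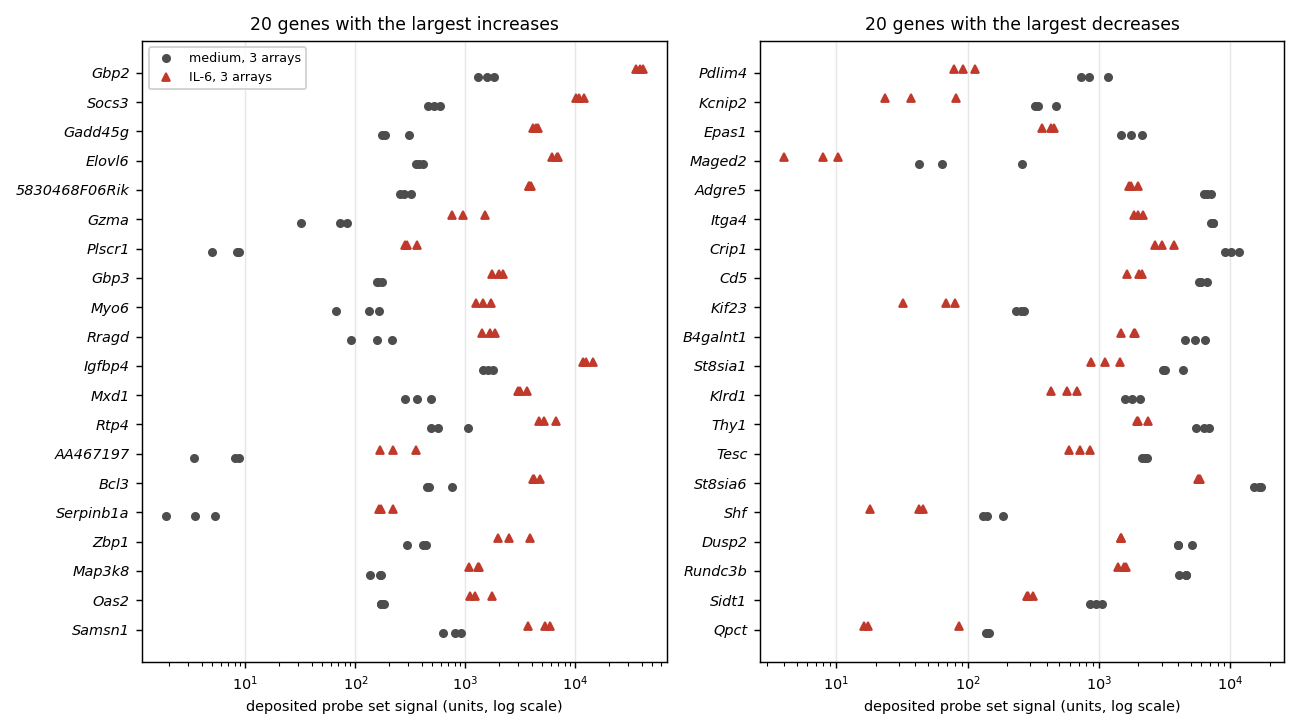
The deposited signal of each array (horizontal axis, log scale) is shown for the 20 genes with the largest increases and the 20 with the largest decreases among genes that were called and whose groups did not overlap, as circles for 3 medium arrays and triangles for 3 IL-6 arrays. Gbp2 lies at 1309 to 1824 units in medium and 35698 to 40940 units with IL-6, while Pdlim4 drops from 730 to 1166 units to 79.0 to 114 units.

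Several regulators of cytokine messages after transcription rose. Of 25 genes listed as mRNA decay regulators 5 were called higher, with a median change of 0.09, and 4 with any 1 array left out. Arid5b, listed as a relative of Arid5a, went up by 1.88 ± 0.13, and no role in decay is claimed for it here. Arid5a went up by 1.66 ± 0.17. ARID5A is known to protect certain inflammatory messages, Il6 among them, from decay. Zfp36, which encodes tristetraprolin and directs AU-rich messages to decay, read 1670, 2162 and 2463 units in medium and 5649, 7426 and 7028 units with IL-6 (1.62 ± 0.27). Zc3h12d, a member of the Regnase family of RNA-cutting enzymes, rose by 1.21 ± 0.14. Among 25 AP-1 and immediate early genes 5 were higher, including Crem at 0.94 ± 0.14 and Jund at 0.81 ± 0.09. Fos and Nr4a1, early genes known from T cell activation, were not called, at 0.35 and -0.34.

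In the cell cycle list, 5 of 30 genes rose and 1, the kinase gene Cdk4, was called lower at -0.72 ± 0.20, which was lost without medium array 1 or 2 or IL-6 array 1 or 3 (adjusted p up to 0.160). The shares over all genes tested were 3.67% higher and 4.65% lower. Cdkn2d, an inhibitor of CDK4 and CDK6, read 1708, 2131 and 1856 units in medium and 6460, 6821 and 6146 units with IL-6 (1.72 ± 0.18). Mcm4, a subunit of the replicative helicase, went from 2243, 2301 and 2371 units to 5850, 5629 and 5728 units (1.25 ± 0.10). The proliferation marker Mki67 was not called, at -0.44. Of 20 ribosomal protein genes 0 were called by limma and 0 had an unadjusted p under 0.05, with changes from -0.08 to 0.08.

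Interferon-inducible genes formed the other large group of increases. All 10 interferon-inducible GTPases tested were called higher, with a median of 1.80 and a range from 0.88 in Irgm2 to 4.53 in Gbp2. Gbp2, a guanylate-binding protein that coats vacuoles of pathogens, went from 1824, 1555 and 1309 units to 40940, 38580 and 35698 units (4.53 ± 0.18, 23.1-fold, adjusted p = 2.87e-12), the largest increase of all genes called with 32 units added to the signals. Gbp3 rose by 3.14 ± 0.22, Gbp7 by 2.32 ± 0.11 and Gbp6 by 2.22 ± 0.12. The immunity-related GTPases Iigp1, Irgm1 and Igtp rose by 2.45 ± 0.15, 1.37 ± 0.17 and 1.24 ± 0.12. The transcription factors Irf9, Irf7, Irf1 and Irf2 rose by 1.40 ± 0.09, 1.21 ± 0.15, 1.04 ± 0.09 and 0.74 ± 0.14, as 4 of the 5 called among 8 interferon regulatory factors.

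Of 45 antiviral interferon-stimulated genes, 22 were called higher and 1 lower, with a median change of 0.79. The one lower was the ubiquitin ligase gene Trim25 at -0.62 ± 0.15, a call lost without medium array 2 or IL-6 array 3 (adjusted p up to 0.0801). Rtp4, a chaperone of G protein-coupled receptors, read 1064, 565 and 490 units in medium and 6596, 4672 and 5150 units with IL-6 (2.87 ± 0.23, or 2.12 as the mean of its probe sets). Zbp1, a sensor of left-handed nucleic acids, read 442, 293 and 407 units and then 3849, 2483 and 1995 units (2.62 ± 0.21), and Oas2, an oligoadenylate synthetase, read 182, 170 and 171 units and then 1750, 1233 and 1091 units (2.54 ± 0.21). In all 3 genes the IL-6 array numbered 1 was the highest. The same held for 20 of the 22 antiviral genes called higher, against 185 of the 439 genes called higher in all, and 4 of the 10 GTPases. The medium array numbered 1 was the highest in medium for 12 of the 22 antiviral genes, against 143 of the 439. Without IL-6 array 1, 16 antiviral genes were called higher, and the count lay between 16 and 24 over the arrays left out in turn. The part of both arrays numbered 1 in the antiviral result was not tested beyond that. In MHC class I and antigen processing, 7 of 16 genes rose, with the transactivator Nlrc5 at 1.15 ± 0.12, the immunoproteasome subunit Psmb10 at 0.71 ± 0.11 and the peptide loading factor Tapbp at 0.67 ± 0.12. Among the 7, the array numbered 1 was the highest in medium for 6 and the highest with IL-6 for 5. With arrays centred on their medians 3 of the 16 were called higher.

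Short stretches before the starts of raised genes, again from RefSeq on GRCm38.p6 and read along the gene, show the motifs in full. The first 6 hold the symmetric form TTCCNGGAA and the last 4 the interferon type, GAAA and GAAA parted by any 2 bases (GAAA-NN-GAAA), as its reverse complement in Gbp2, Gbp3 and Gbp7. Gbp7 is shown for both forms. Capitals mark 1 match in each line, and the genes were chosen after their values were seen. Other raised genes with a match of either form are not shown. Among them is Gzma, with the interferon type 97 bases before its start and a rise 2.69 larger in wild type than in STAT3-deficient cells.
Sbno2, chr10:80101193-80101221, minus strand: ccggctctgcTTCCCGGAAtgcctgtgag
Bcl6, chr16:23981433-23981461, minus strand: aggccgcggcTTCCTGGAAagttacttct
Bcl6, chr16:23981353-23981381, minus strand: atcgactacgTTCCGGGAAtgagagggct
Icam1, chr9:21015888-21015916, plus strand: ggcgcgaggtTTCCCGGAAagtggccccg
Gbp7, chr3:142530220-142530248, plus strand: tccgttttctTTCCAGGAAaagcagaagc
Irgm2, chr11:58214892-58214920, plus strand: aactagccatTTCCAGGAActgaaactga
Gbp2, chr3:142620594-142620623, plus strand: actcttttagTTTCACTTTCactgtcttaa
Gbp3, chr3:142559989-142560018, plus strand: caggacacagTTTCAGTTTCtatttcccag
Gbp7, chr3:142530273-142530302, plus strand: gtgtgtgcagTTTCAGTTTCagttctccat
Socs1, chr16:10785600-10785629, minus strand: agacttgccgGAAAGAGAAAccgaaagcgg

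The matches of the symmetric form began 24 bases before the start in Sbno2, 168 and 88 bases before it in Bcl6, 42 in Icam1, 106 in Gbp7 and 75 in Irgm2. Those of the interferon type began 59 bases before the start in Gbp2, 45 in Gbp3, 53 in Gbp7 and 83 in Socs1, and Gbp3 and Socs1 hold a further match that overlaps the marked one, beginning at 39 and 77 bases. The rise was smaller in wild type than in STAT3-deficient cells in Gbp7, with a difference of -1.11, and in Irgm2, with one of -1.89. Sbno2, a corepressor induced by IL-6 and IL-10 signalling, rose by 2.42 ± 0.13 (1.55 as the mean of its probe sets), and Icam1, the ligand of LFA-1, by 1.30 ± 0.14. Promoter windows of 300 bases, from 250 before to 50 after a start, could be matched for 9682 of the genes tested and were searched on both strands. TTCNNNGAA was found for 8.40% of all these genes, 13.7% of those called higher and 7.26% of those called lower. TTCCNGGAA, every match of which is also a match of TTCNNNGAA, was found for 1.51%, 3.92% and 1.36%. The interferon type was found for 3.67%, 11.5% and 2.04%. Of the 120 raised genes with a window whose rise was called larger in wild type than in STAT3-deficient cells, 18 held TTCNNNGAA, 7 TTCCNGGAA and 6 the interferon type. Of the 94 raised genes that were also called higher in STAT3-deficient cells, 18 held TTCNNNGAA, 4 TTCCNGGAA and 27 the interferon type. Genes can be in both sets, and the difference between the sets was not tested. A match describes letters in a window and is not a binding site.

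Many genes of T cell receptor signalling fell. Of 35 tested, 16 were called lower and 1 higher, with a median change of -0.26, and 13 to 15 were lower with 1 array left out. The one higher was Cblb, a ubiquitin ligase that restrains T cells, at 0.44 ± 0.11, a call lost without medium array 1 or 3 or IL-6 array 2 (adjusted p up to 0.135). Among the markers of CD4 T cells, 7 of 10 were called lower as well, and the part of that in this list was not tested. Cd5, a receptor that restrains T cell receptor signals, read 5824, 5993 and 6656 units in medium and 1631, 2114 and 2012 units with IL-6 (-1.64 ± 0.11, 3.11-fold, adjusted p = 4.34e-09). Ptpn22, a phosphatase that switches off the kinase Lck, went from 6829, 7882 and 9891 units to 2825, 3352 and 3021 units (-1.40 ± 0.14). Its relatives in function fell too, with the surface receptor Cd6 at -1.37 ± 0.13 and the suppressor Ubash3a at -0.94 ± 0.11.

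The members that fell also included the coreceptor and a chain of the receptor complex. Cd4, the coreceptor, read 2520, 2821 and 1915 units in medium and 1198, 1012 and 1455 units with IL-6 (-0.92 ± 0.18, adjusted p = 0.00153), and Cd3g fell by 0.65 ± 0.09 on the log2 scale. Cd3d, Cd3e and the kinase gene Zap70 were not called, at -0.14, -0.26 and -0.13. Thy1, a glycoprotein on the surface of all mouse T cells, dropped from 5522, 6865 and 6349 units to 1977, 1958 and 2381 units (-1.53 ± 0.19). Cd28, the main costimulatory receptor, read 12483, 14282 and 14158 units in medium and 6209, 6713 and 7005 units with IL-6, 2.10-fold lower, and Cd96 fell by 1.14 ± 0.13 on the log2 scale. Icos, an inducible costimulator of the same family as Cd28, rose instead, by 1.09 ± 0.14, as did Tnfsf8, the ligand of CD30, by 2.14 ± 0.23.

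**Figure D3:**
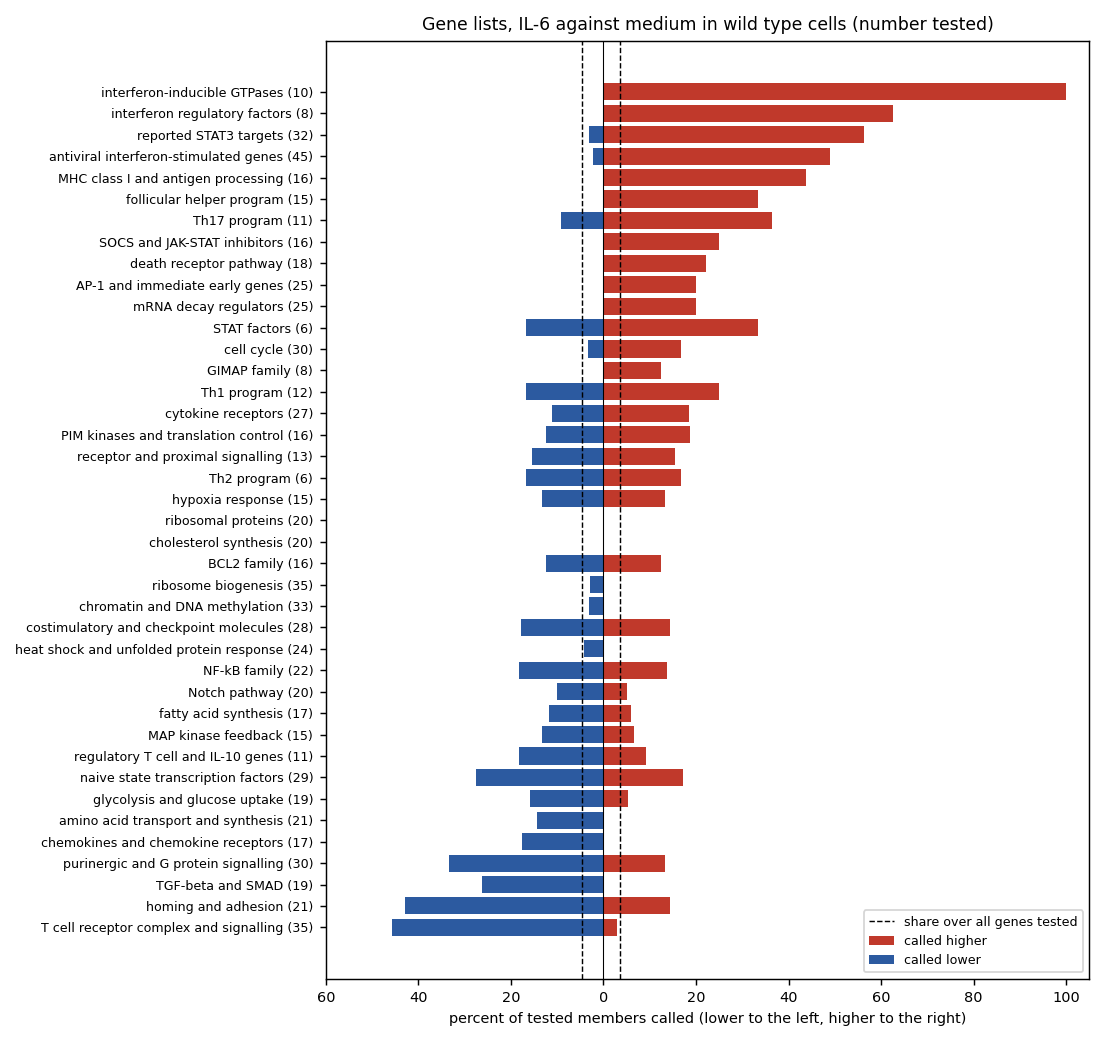
Bars give the percentage of tested members called higher (right) and lower (left) with IL-6 for 40 gene lists of at least 5 tested genes, with the number tested in brackets, and dashed lines mark the shares over all genes tested, 3.67% and 4.65%. The interferon-inducible GTPases have 10 of 10 called higher, T cell receptor signalling has 16 of 35 called lower, and homing and adhesion 9 of 21.

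Many adhesion and homing genes fell. Of 21 tested, 9 were lower and 3 higher, with a median of -0.27. Itga4, the alpha chain of the integrin VLA-4, read 7437, 7095 and 7427 units in medium and 2169, 1851 and 1971 units with IL-6 (-1.83 ± 0.12, 3.55-fold, or -1.05 as the mean of its probe sets), and 2 of its 3 further probe sets also fell, by 0.68 ± 0.17 and 1.03 ± 0.18. Adgre5, the adhesion G protein-coupled receptor CD97, went from 7092, 6351 and 6608 units to 1996, 1761 and 1690 units (-1.83 ± 0.09). Itgb7, the partner chain of Itga4 in gut homing, fell by 1.01 ± 0.13, and the chemokine receptor Cxcr4 dropped from 2612, 3169 and 3016 units to 898, 1052 and 1072 units (-1.44 ± 0.22). Ccr7, which guides naive cells into lymph nodes, went from 21492, 24386 and 20616 units to 17272, 18010 and 15998 units (-0.40 ± 0.07), a call that was lost when arrays were centred on their medians, a setting under which 1 gene of the list was called higher.

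The 20 largest decreases held 3 genes for enzymes that build gangliosides or sialylated glycans, which were noticed there after their values were seen and do not come from a list. B4galnt1, the synthase of complex gangliosides, read 6390, 5409 and 4492 units in medium and 1849, 1883 and 1463 units with IL-6 (-1.59 ± 0.15). St8sia1, which makes the disialo ganglioside GD3, went from 3058, 3167 and 4396 units to 876, 1116 and 1444 units (-1.54 ± 0.17), and St8sia6, another alpha-2,8-sialyltransferase, from 15016, 16436 and 16995 units to 5766, 5893 and 5724 units (-1.50 ± 0.08, adjusted p = 4.66e-10). Other large decreases were Pdlim4, a cytoskeletal adaptor, from 730, 1166 and 836 units to 92.2, 114 and 79.0 units (-2.67 ± 0.30, 6.37-fold), the LIM protein gene Crip1 at -1.71 ± 0.12, Tesc at -1.51 ± 0.14 and Rundc3b at -1.48 ± 0.11. Epas1, which encodes the hypoxia factor HIF-2 alpha, fell from 2114, 1741 and 1481 units to 431, 368 and 453 units (-1.88 ± 0.20) while Hif1a rose. Of 15 hypoxia response genes 2 rose and 2 fell, against 3.67% and 4.65% of all genes tested.

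Genes of signalling through G proteins and cyclic AMP changed in both directions. Of 30 genes 10 were lower and 4 higher, with a median of -0.19. Both beta-arrestins fell, Arrb1 by 0.97 ± 0.15 and Arrb2 by 0.90 ± 0.09 on the log2 scale, and so did the phosphodiesterase gene Pde7a, by 1.15 ± 0.15. Gpr174, a receptor for lysophosphatidylserine, went from 1428, 1782 and 2263 units to 503, 820 and 871 units (-1.22 ± 0.22). On the other side, the receptor kinase gene Grk6 rose by 0.92 ± 0.11.

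Transcription factors of the naive state were split. Of 29 tested, 8 were lower and 5 higher, with a median of -0.27, and 2 were higher when arrays were centred on their medians. Lef1, a partner of beta-catenin, went from 12869, 13699 and 15310 units to 8069, 8803 and 9511 units (-0.71 ± 0.11), and Klf2, which maintains quiescence and homing, from 18783, 17593 and 16715 units to 11641, 11790 and 11871 units (-0.62 ± 0.07). Gata3, the regulator of Th2 cells that naive cells express at a low level, fell from 721, 808 and 869 units to 349, 362 and 339 units (-1.02 ± 0.19), while Rora was not called, at -0.37. In TGF-beta signalling, 5 of 19 genes were lower, led by Smad3 at -1.04 ± 0.11 and the coreceptor Tgfbr3 at -0.93 ± 0.16. That count was 3 without medium array 1, IL-6 array 1 or IL-6 array 3, and when arrays were centred on their medians.

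Cytokine receptors changed in both directions, with 5 of 27 higher and 3 lower, against 3.67% and 4.65% of all genes tested. Il17ra, through which IL-17 signals, read 6624, 6895 and 6903 units in medium and 13676, 15244 and 17477 units with IL-6 (1.12 ± 0.12, 2.18-fold), and Il21r and Il4ra rose by 0.85 ± 0.13 and 0.72 ± 0.09. Il7r, the survival receptor of naive cells, went from 27392, 27624 and 29967 units to 17317, 19671 and 18385 units (-0.65 ± 0.09). In survival pathways, Mcl1 rose by 0.97 ± 0.13 and the death receptor gene Fas by 1.74 ± 0.27, from 673, 755 and 893 units to 2772, 2678 and 2800 units. Of 18 death receptor genes 4 rose. The cytotoxic granule gene Gzma went from 32.3, 72.7 and 84.1 units to 1489, 945 and 750 units (3.33 ± 0.33), while Klrd1, a receptor of NK and CD8 T cells, fell from 1575, 2050 and 1780 units to 429, 574 and 686 units (-1.54 ± 0.16). The defining CD8 marker Cd8a was not called, at 0.07, and turned to -0.38 as the mean of its probe sets.

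Further probe sets of the genes called were compared with the one that stood for the gene. Of the 996 genes called, 585 had 1094 further probe sets that could be read. Of these, 448 were called in the same direction as the gene, 575 had the same direction without a call, 71 had the opposite direction without a call, and 0 were called in the opposite direction by limma.

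STAT3-deficient cells were used to ask which of these changes differed without STAT3. The difference between the IL-6 effects of both genotypes was tested as an interaction term, and 150 of 11971 genes (1.25%) had a change called higher in wild type cells and 219 (1.83%) a change called lower, 3.08% in all. With arrays centred on their medians the counts were 73 and 252. Of the 439 genes raised in wild type cells, 146 rose more there than in STAT3-deficient cells, 27 rose less, and for 266 no difference was called. Of the 557 lowered genes, 162 had a change called lower in wild type cells, and for 395 no difference was called. Both sets were chosen by the wild type arrays that also enter the difference, which favours the direction of the choice, so these splits are a description. In STAT3-deficient cells alone, IL-6 left 202 genes called higher (1.69%) and 19 called lower (0.159%), 1.85% in all, among them 112 of the 439 and 10 of the 557. The STAT3-deficient arrays had higher median signals, 172.2 to 190.4 units in medium and 131.5 to 174 units with IL-6. Wild type arrays lay at 104.4 to 121 units in medium and 107.8 to 126.1 units with IL-6. The part of these medians in the differences was not tested.

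Several raised genes had a larger change in wild type cells. Elovl6 changed by 3.85 in wild type and by 0.26 in STAT3-deficient cells, a difference of 3.59 ± 0.18 (adjusted p = 8.27e-10), and Socs3 by 4.18 and 0.77, a difference of 3.41 ± 0.21. Igfbp4, Rragd, Bcl3 and Myo6 differed by 2.85 ± 0.15, 2.86 ± 0.37, 2.76 ± 0.21 and 2.74 ± 0.41, and Bcl6, Batf, Junb and Il6st by 1.64 ± 0.23, 1.81 ± 0.20, 1.25 ± 0.18 and 0.90 ± 0.16. The rise of Stat3 signal was 0.87 ± 0.17 larger in wild type cells, and whether its probe sets read inside or outside the deleted exons was not determined. Of 32 reported STAT3 targets 13 had a higher change in wild type cells and 2 a lower one.

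For most interferon-inducible GTPases the change was smaller in wild type cells. Gbp6 rose by 2.22 in wild type and by 4.39 in STAT3-deficient cells, a difference of -2.17 ± 0.17, and Gbp8 by 1.11 and 2.85, a difference of -1.74 ± 0.14. The change was lower in wild type cells for 8 of 10 interferon-inducible GTPases and 14 of 45 antiviral genes. Plscr1 was the 1 antiviral gene with a higher change in wild type cells, with 3.16 in wild type and 0.50 in STAT3-deficient cells. No difference was called for Gbp2, at 0.30 ± 0.25 (adjusted p = 0.726), nor for Socs1 at 0.06 ± 0.29, Pim2 at 0.37 ± 0.18 or 5830468F06Rik at 0.06 ± 0.32. Among the decreases, the change in wild type cells was lower by 1.62 ± 0.17 in Itga4, 1.46 ± 0.13 in Adgre5, 1.34 ± 0.12 in St8sia6, 1.14 ± 0.15 in Cd5 and 0.62 ± 0.13 in Jak1. Only 3 genes were called in opposite directions, Cd9, Slco3a1 and Trim25, each lower in wild type cells and higher in STAT3-deficient cells. Slco3a1 lost its wild type call when any single array other than IL-6 array 1 was left out (adjusted p up to 0.174), Trim25 without medium array 2 (adjusted p = 0.0607) and without IL-6 array 3 (adjusted p = 0.0801), and both Cd9 and Trim25 when arrays were centred on their medians.

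**Figure D4:**
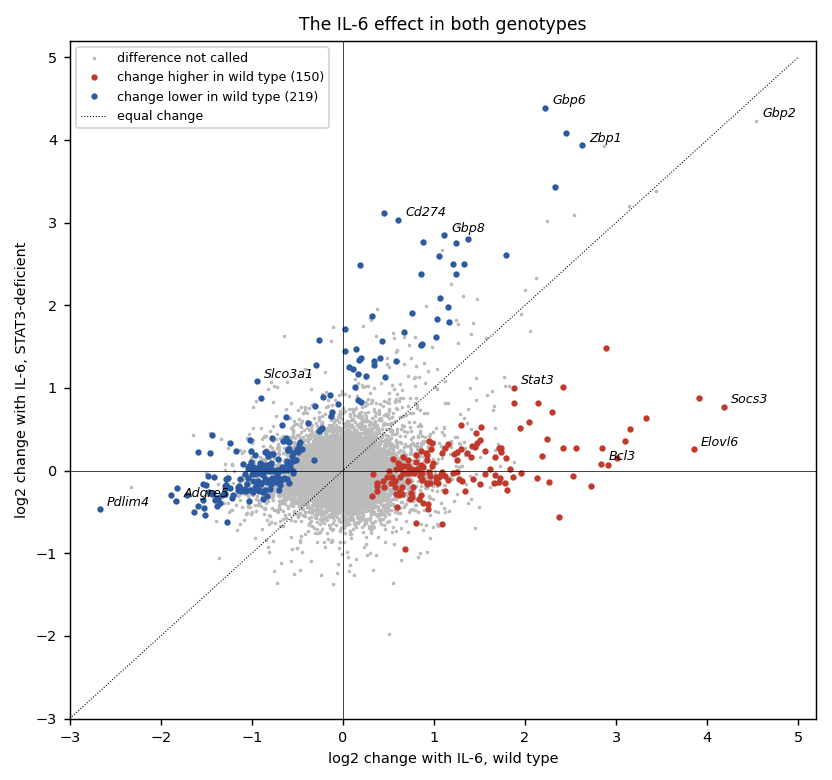
The log2 change with IL-6 in wild type cells (horizontal axis) is set against that in STAT3-deficient cells (vertical axis), 1 point per gene for 11971 genes, coloured where the difference between both was called. Socs3 and Elovl6 lie far to the right at 0.77 and 0.26 on the vertical axis, Gbp2 lies close to the line of equal change, and Gbp6 lies above it.

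Wild type cells given IL-27, which also signals through Il6st, show what was larger or smaller with IL-6. Both cytokines share the medium arrays, so that only the direct contrast of the IL-27 and IL-6 arrays was tested, in which IL-27 left 212 genes above (1.77%) and 164 below (1.37%) their IL-6 level. With arrays centred on their medians the counts were 102 and 103. Of the 439 genes raised by IL-6, 143 were lower and 49 higher with IL-27 than with IL-6, and for 247 no difference was called. Of the 557 lowered by IL-6, 94 were higher with IL-27 and 463 were not called. The IL-6 arrays that chose these genes also enter this contrast, so these splits too are a description. Map3k8 changed by 2.56 under IL-6 against -0.14 under IL-27, a difference of -2.70 ± 0.24 between the cytokines, Samsn1 by 2.52 and 0.26, and Il17ra by 1.12 and -0.11. Slc30a4, a zinc transporter gene, changed by 1.80 under IL-6 against -0.20 under IL-27. Il6st changed by 0.87 and -0.23, a difference of -1.10 ± 0.12 (adjusted p = 6.34e-06). Irf1, by contrast, changed by 1.04 under IL-6 against 2.77 under IL-27, and Irgm1 by 1.37 and 4.58. For Stat3 itself, at 1.88 and 1.57, and for Bcl6, at 1.79 and 1.41, no difference between the cytokines was called (-0.31 ± 0.12, adjusted p = 0.269, and -0.38 ± 0.16, adjusted p = 0.345).

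**Figure D5:**
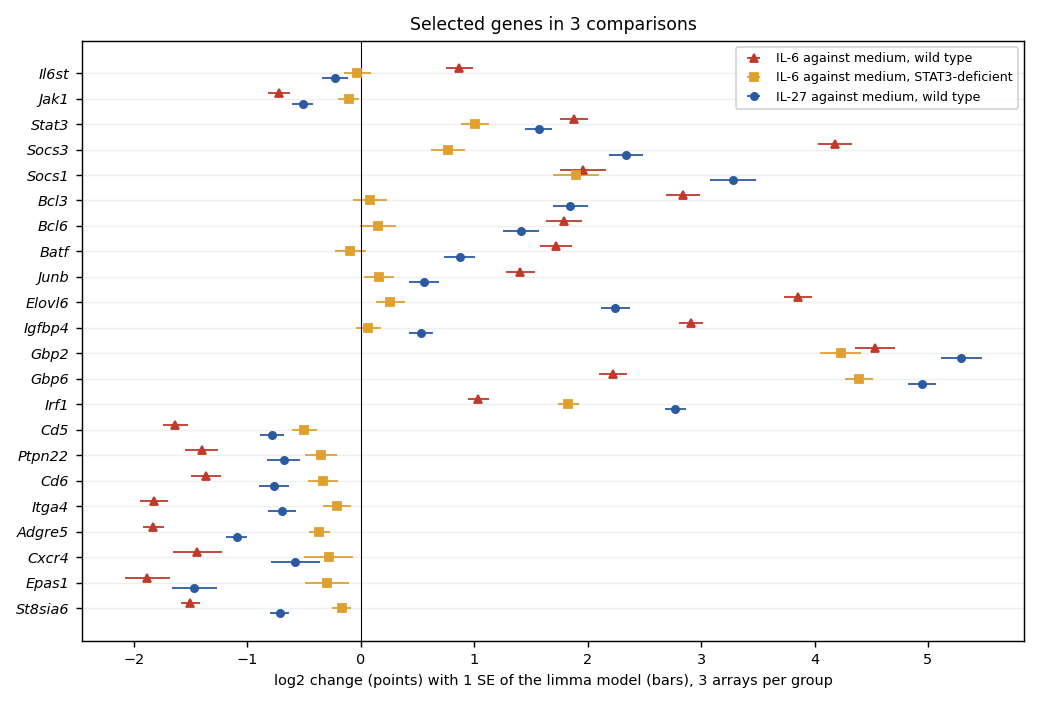
Log2 changes (points) with 1 standard error from limma (bars), 3 arrays in each group, are shown for 22 genes under IL-6 in wild type cells, IL-6 in STAT3-deficient cells and IL-27 in wild type cells, where both wild type comparisons share the medium arrays. Cd5, Ptpn22, Cd6, Itga4 and Adgre5 lie between -1.83 and -1.37 under IL-6 in wild type cells, to the left of their points in the other comparisons, and Il6st lies at 0.87 there and at -0.23 under IL-27.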

How the data were processed

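RNA of 18 samples was measured on Affymetrix Mouse Genome 430 2.0 arrays, 3 in each of 6 groups. The authors deposited 1 signal intensity per probe set and array on a linear scale, made with GCOS per the submitters' processing notes. The version of GCOS and its scaling are not stated in the sources used here. For this report, 32 was added to each intensity, log2 was taken and the 18 arrays were quantile normalised. Of 45101 probe sets, 34945 had 1 gene symbol in the platform annotation, 932 several and 9160 none, besides 64 controls. Probe sets above their own array's median on at least 3 arrays were kept, and each gene was read by its brightest remaining probe set, which left 11971 genes. A group-means model over all 18 arrays was fitted with limma 3.58.1 in R 4.3.3 (lmFit, eBayes with a variance trend, two-sided), and genes with a Benjamini-Hochberg adjusted p under 0.05 were called. The number of arrays, 3 per group, limits the precision. The scripts were tested on simulated data.

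The members and the gene lists were chosen with earlier results of these data known. Genes were named by rule: up to 20 per direction with the largest called change and groups that did not overlap, up to 5 members of each list with called members first, a fixed set of pathway and lineage genes, up to 15 per direction for the differences between genotypes and between cytokines, and promoters of up to 4 of the raised genes with a STAT palindrome that are not on chromosome 18. Arrb2, Cblb, Cd3d, Cd3e, Cd9, Cdk4, Fos, Mki67, Nr4a1, Sbno2, Trim25 and Zap70 fall outside that rule and were chosen after their values were seen. Alternatives covered the scaling, the added constant, the filter, the choice of probe set, the variance model, array weights, the arrays fitted, a replicate block, a minimum change and each array left out in turn. One more, in which the 6 arrays were normalised, filtered and fitted alone, was added after seeing the data. Same-numbered arrays of medium and IL-6 deviated from their group means with correlations of 0.189, 0.081 and 0.214 across genes. Arrays of differing numbers did so with correlations from -0.17 to -0.009. The labels do not explain the numbers, so they were not taken to pair the samples, and the block on them was kept as an alternative.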

Additional observations from a re-analysis of the deposited data

Results flagged for a closer look

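The IL-6 effect differed between wild type and STAT3-deficient cells by limma's interaction term for 150 genes with a higher change in wild type cells and 219 with a lower one. The differences that follow are log2 changes in wild type minus STAT3-deficient cells, with 3 arrays per group. Among the genes raised most in wild type cells, the difference was 3.41 for Socs3, 3.03 for Gadd45g, 3.59 for Elovl6, 2.69 for Gzma, 2.65 for Plscr1, 2.74 for Myo6, 2.86 for Rragd and 2.85 for Igfbp4. It was 1.41 for Mxd1, 2.58 for AA467197, 2.76 for Bcl3, 2.91 for Serpinb1a, 2.29 for Map3k8 and 2.59 for Samsn1. AA467197 and Serpinb1a, both below the array median on all medium arrays, lost their wild type call with a constant of 1 added to the signals (adjusted p = 0.0504 and 0.268). Serpinb1a lost it also with no filter on dim probe sets, at a change of 0.89 against 2.73 (adjusted p = 0.125). Both genes lay above the array median on all IL-6 arrays, which alone were enough to pass the filter. Among the genes lowered most, the difference was -2.20 for Pdlim4, -1.59 for Epas1, -1.46 for Adgre5, -1.62 for Itga4, -1.41 for Crip1, -1.14 for Cd5, -1.82 for Kif23 and -1.16 for B4galnt1, and -1.37 for St8sia1, -1.19 for Klrd1, -1.08 for Thy1, -0.97 for Tesc, -1.34 for St8sia6, -1.41 for Rundc3b and -1.21 for Sidt1. In the receptor pathway it was 0.90 for Il6st, -0.62 for Jak1 and 0.87 for Stat3, and among transcription factors and cytokines 1.64 for Bcl6, 1.81 for Batf, 1.74 for Il21, -1.39 for Gata3, 1.25 for Junb and -0.62 for Klf2. The difference was 0.81 for Pim1 and -0.55 for Il7r. Among interferon-related genes with a smaller change in wild type cells it was -1.32 for Zbp1, -0.79 for Irf1 and -2.43 for Cd274. Cd274, the checkpoint ligand PD-L1, and Il21, a cytokine of helper cells, were called in wild type cells. Cd274 lost its call without any single array other than medium array 1 (adjusted p up to 0.163) and Il21 lost its call without medium array 1 or 3 or IL-6 array 2 or 3 (adjusted p up to 0.168). The wild type change of Il21, 1.09, was 1.91 as the mean of its probe sets and 2.79 with the 6 arrays alone. The genes called in opposite directions differed by -1.22 for Cd9, -2.02 for Slco3a1 and -1.27 for Trim25.

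Probe sets without a gene symbol in the annotation were left out of the gene-level comparison. Of 4666 such probe sets that passed the filter, 77 were called higher and 57 lower with IL-6 in wild type cells. Among the 11971 genes tested the counts were 439 and 557.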

How the results depend on the processing

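Of 127 genes named in the text, 114 were called, and 68 of these were called in each of the 21 alternatives. Plscr1 was called in the 20 that gave it a value, and the filter on at least 6 arrays left it out. Cd8a was the only named gene whose change turned sign. Left out in turn, single arrays gave 754 to 864 calls for IL-6 against medium (340 to 404 higher, 394 to 460 lower), 167 to 182 calls among list members, 272 to 382 for the difference between genotypes (111 to 158 higher, 160 to 236 lower) and 282 to 301 for IL-27 against IL-6 (154 to 171 higher, 123 to 141 lower). A required change of over 1.5-fold (treat) left 160 calls for IL-6 (111 higher, 49 lower), 61 among list members, 47 between genotypes (31 and 16) and 57 between cytokines (34 and 23), by its own construction. It also turned the share of higher calls from 44.1% to 69.4%. With each probe set on its own, 1532 of 21539 probe sets were called (718 higher), 234 were higher between genotypes and 258 lower with IL-27. Median centring moved the median of all genes from -0.02 to -0.05 and left 73 genes higher and 252 lower between genotypes and 205 between cytokines (102 higher, 103 lower), and the cause was not tested. Cd8a, not called, stood at -0.38 as the mean of its probe sets and between -0.062 (without medium array 1) and 0.23 (without medium array 3) with single arrays left out. The alternative added after seeing the data, the 6 arrays alone, gave 1251 calls (514 higher, 737 lower) among 10322 genes tested.

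The fit with the replicate number as a block within genotype called 1298 genes for IL-6 (548 higher, 750 lower), 635 for the difference between genotypes (241 higher, 394 lower) and 588 for IL-27 against IL-6 (339 higher, 249 lower). Among the 6 wild type arrays in medium or IL-6, each correlated best with the array of its own number in the other group, which is a hint from the data and not a part of the design.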
